A study of Fragaria vesca with 18 samples.

Results

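FvMYB10 is the gene FvH4_1g22020 of the woodland strawberry Fragaria vesca, and it was chosen by its ID: 1 of the 28588 annotated genes in the count table. RNA was measured in fruit tissue of Hawaii4, a white-fruited accession, at 3 stages told apart by the colour of the achenes, the seed-like bodies that dot a strawberry. Green stands for immature fruit, and yellow and brown stand for mature fruit with achenes of that colour. Each stage was sequenced after removal of polyadenylated RNA (poly(A)-depleted) and after removal of ribosomal RNA (rRNA-depleted), with 3 biological replicates of each, which makes 18 libraries in 6 groups. Each replicate pooled fruit of several greenhouse-grown plants, the labels state no treatment, and they name no transgene or mutant allele, so all groups share the Hawaii4 background.

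FvMYB10 encodes an R2R3-MYB, a transcription factor whose DNA-binding domain is built from a pair of imperfect MYB repeats. In strawberry and other Rosaceae, MYB10 proteins act with bHLH and WD40 partners to switch on genes of anthocyanin biosynthesis. These genes encode enzymes that make the red pigments of ripe fruit. White-fruited forms of the species lack this pigment in the receptacle, and the transcript level of the regulator in such fruit is what the libraries measure. In bulk RNA of this kind, fewer cells of a type and less RNA per cell cannot be told apart.

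Library totals ranged from 9.49 to 20.4 M counts in poly(A)-depleted libraries and from 47.2 to 76.9 M in rRNA-depleted libraries, so a single count weighs more in the poly(A)-depleted ones. A level of 3 counts, used here as the floor, corresponds to 0.147 to 0.316 CPM (counts scaled to a fixed library total) in poly(A)-depleted libraries and to 0.039 to 0.0635 CPM in rRNA-depleted libraries. Of the 18 libraries, the poly(A)-depleted brown library 3 was least like its own group, with a mean r of 0.722. It correlated across 23442 annotated genes with the poly(A)-depleted yellow libraries at r = 0.864, 0.908 and 0.928, but with the other poly(A)-depleted brown libraries at 0.689 and 0.755. These values describe likeness across genes, which are not independent replicates. Intergenic lncRNA rows took 16.8% of its counts, against 5.44 and 11.0% in poly(A)-depleted brown libraries 1 and 2. The rRNA-depleted yellow library 2 had a TMM factor of 0.320, against 0.580 and 0.617 in yellow libraries 1 and 3, and its mean r was 0.922 with these and 0.937 with the rRNA-depleted brown libraries. The rRNA-depleted brown library 3 had a TMM factor of 0.919, against 0.441 and 0.497 in brown libraries 1 and 2, but was closer to these (mean r = 0.918) than to the yellow libraries (0.869). Most tests of FvMYB10 on groups that hold these 3 libraries are given with and without them. The spread between replicates, the ripening set, the named rows and the neighbouring genes are described with them only.

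FvMYB10 was close to undetected in green fruit, clearly present in yellow fruit and most abundant in brown fruit. In poly(A)-depleted green libraries 1, 2 and 3 it held 2, 5 and 5 counts, or 0.125, 0.319 and 0.300 CPM. The poly(A)-depleted yellow libraries held 54, 87 and 45 counts, or 5.66, 7.68 and 4.74 CPM. The poly(A)-depleted brown libraries held 851, 590 and 59 counts, or 41.6, 52.6 and 4.86 CPM. Every yellow and brown library lay above every green library here, while brown library 3 fell within the range of the yellow libraries.

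In rRNA-depleted green libraries 1, 2 and 3 the gene held 2, 6 and 3 counts, or 0.0319, 0.0780 and 0.0526 CPM. In rRNA-depleted yellow libraries it held 505, 1004 and 963 counts, or 7.65, 13.4 and 14.5 CPM. In rRNA-depleted brown libraries it held 3229, 3169 and 2161 counts, or 44.7, 49.0 and 45.8 CPM. The 3 stages did not overlap in this kind of library, and the brown libraries measured 46.5 ± 2.22 CPM (SD, n = 3). That narrow spread held for library totals only, since after TMM scaling within the kind they measured 46.8 ± 12.4 normalised CPM. Green fruit was at or near the floor: library 1 of each kind lay below its floor of 3 counts, and rRNA-depleted green library 3 lay on it.

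**Figure D1:**
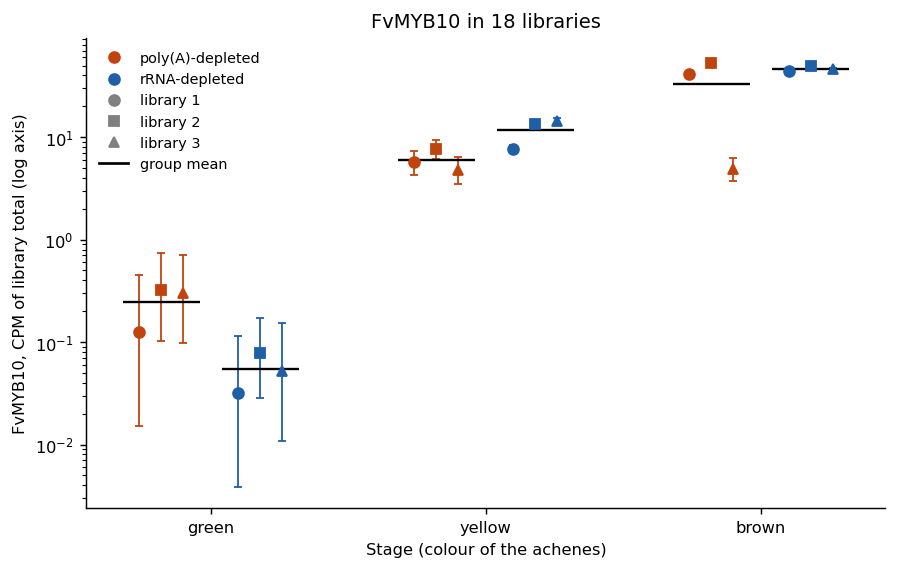
CPM of FvMYB10 (log axis) in each of the 18 libraries by stage, with poly(A)-depleted libraries left of rRNA-depleted ones; bars are exact 95% Poisson intervals, which cover counting error only, and black lines are group means. The rRNA-depleted brown libraries sit between 44.7 and 49.0 CPM, while poly(A)-depleted brown library 3, at 4.86 CPM, sits among the yellow libraries.

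The change in mature relative to green fruit was among the steepest of any annotated gene tested in rRNA-depleted libraries. Counts were tested with edgeR's quasi-likelihood test with TMM scaling over all rows, in a separate fit for each kind of library. The Benjamini-Hochberg adjustment ran over every row of a fit, and a gene was called at an adjusted p under 0.05. FvMYB10 entered both fits through its mature stages, since its green counts alone would not pass the filter on low counts. Normalised CPM are CPM after that scaling.

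Between yellow and green fruit, FvMYB10 averaged 4.87 ± 1.298 normalised CPM in yellow and 0.297 ± 0.129 in green poly(A)-depleted libraries (SD, n = 3 each). It rose by a log2 fold change of 4.0 ± 1.08 (standard error, edgeR adjusted p = 0.0458), where 1.71% of annotated genes were called higher and 9.96% lower. This call was narrow: it was lost without poly(A)-depleted brown library 2 (adjusted p = 0.0625), without green library 1, 2 or 3 (0.126, 0.108 and 0.148) and without yellow library 1, 2 or 3 (0.0590, 0.150 and 0.102). Without poly(A)-depleted brown library 3, which shares the fit, the log2 fold change was 3.98 ± 0.38 and the adjusted p was 1.17e-05, with 10.9% of genes called higher and 32% lower. In rRNA-depleted libraries it averaged 14.1 ± 7.71 normalised CPM in yellow and 0.0492 ± 0.0195 in green fruit. There it rose by 8.08 ± 0.60 (adjusted p = 7.11e-06), where 3.31% of annotated genes were called higher and 6.01% lower, and 11 of the 25577 annotated genes tested had a larger log2 fold change. Without rRNA-depleted yellow library 2 it rose by 7.67 ± 0.47 (adjusted p = 2.24e-06).

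Counts pooled over the 3 libraries of a group put an interval on these folds from counting error alone. In poly(A)-depleted libraries 186 yellow against 12 green counts put pooled yellow CPM at 24.7 times the green (13.8 to 48.6, exact 95% interval). In rRNA-depleted libraries 2472 yellow against 11 green counts gave 213 times (119 to 427). The poly(A)-depleted interval lay wholly below the rRNA-depleted one, but neither covers the spread between fruit samples.

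The difference between brown and yellow fruit was not called by edgeR in either kind of library, though the group mean was higher in brown fruit in both. In rRNA-depleted libraries FvMYB10 averaged 46.8 ± 12.4 normalised CPM in brown and 14.1 ± 7.71 in yellow fruit, and every brown library lay above every yellow one. The log2 fold change was 1.73 ± 0.42, with an unadjusted p of 0.00103 and an edgeR adjusted p of 0.124, and 1.94 without rRNA-depleted brown library 3 (0.325). In that comparison edgeR called 0 of 25577 annotated genes (0%), with 3809 at an unadjusted p under 0.05, while DESeq2 called 28 higher (0.109%) and 823 lower (3.22%). FvMYB10 was among the 28, with a log2 fold change of 1.61 and a DESeq2 adjusted p of 0.0364. Without rRNA-depleted yellow library 2 edgeR called it as well, at 2.19 ± 0.38 (adjusted p = 0.00388), with 1.12% of genes called higher and 4.9% lower.

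The same step in poly(A)-depleted libraries measured 42.4 ± 35.6 normalised CPM in brown and 4.87 ± 1.298 in yellow fruit. Its log2 fold change of 3.11 ± 0.83 had an unadjusted p of 0.0039 and an edgeR adjusted p of 0.531. Here edgeR and DESeq2 each called 0 of 25204 annotated genes (0%), with 2698 at an unadjusted p under 0.05 in edgeR. DESeq2 gave FvMYB10 no adjusted p. Without brown library 3 the log2 fold change was 3.71 ± 0.28 (edgeR adjusted p = 3.54e-05), with 23.6% of genes called higher and 12.6% lower. Without brown library 1 it was 2.45 and was not called.

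Across the whole series of stages, brown fruit differed from green in both kinds of library. FvMYB10 rose by a log2 fold change of 7.11 ± 1.10 in poly(A)-depleted libraries (edgeR adjusted p = 0.00585, 1.18% of genes called higher and 5.73% lower), and 9 of 25204 annotated genes had a larger one. Without brown library 3 it rose by 7.69 ± 0.38 (adjusted p = 1.32e-07), with 7.99% of genes called higher and 14.7% lower. In rRNA-depleted libraries, 4.8% of genes were called higher and 13% lower, and 1 of 25577 annotated genes had a larger log2 fold change than the 9.81 ± 0.64 of FvMYB10 (adjusted p = 4.28e-06). It was 10.01 without rRNA-depleted brown library 3 (5.36e-05) and 9.86 without rRNA-depleted yellow library 2 (8.87e-08). The pooled counts, 8559 brown against 11 green, put pooled brown CPM at 830.3 times the green (464 to 1664, exact 95% interval). The stages ranked green, yellow, brown in both kinds, where the neighbours yellow and brown overlapped in poly(A)-depleted libraries and did not overlap in rRNA-depleted ones.

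**Figure D2:**
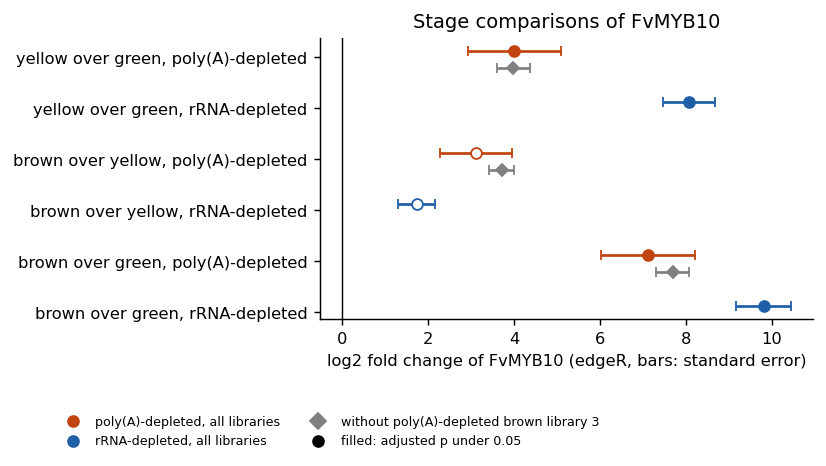
Log2 fold changes of FvMYB10 between stages with standard errors, for poly(A)-depleted and rRNA-depleted libraries and for the poly(A)-depleted fit without brown library 3; filled symbols have an adjusted p under 0.05. The brown over yellow values of 3.11 and 1.73 are the open ones, and the first is filled at 3.71 without that library.

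The spread between replicates of FvMYB10 was ordinary in rRNA-depleted and wide in poly(A)-depleted libraries. Its biological coefficient of variation, edgeR's estimate of the spread beyond counting error, was 0.393 in the rRNA-depleted fit, beside a median of 0.454 over all 49283 rows tested. In the poly(A)-depleted fit it was 0.657, beside a median of 0.315 over 48201 rows. The poly(A)-depleted brown group carried the widest range of the 6 groups, with its highest library 10.8 times its lowest.

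The yellow libraries differed among themselves, and FvMYB10 did not follow the other ripening genes equally in each. A set of 404 annotated genes at least 4-fold higher in the brown than in the green group of rRNA-depleted libraries, with at least 10 normalised CPM in brown, served as a yardstick; it was chosen after the data were seen and leaves FvMYB10 out. The mean log2(normalised CPM + 0.5) of the set was 4.70, 7.56 and 5.82 in rRNA-depleted yellow libraries 1, 2 and 3. It was 3.24, 3.14 and 3.11 in the green and 7.08, 7.04 and 6.01 in the brown libraries. In normalised CPM yellow library 2 thus stood above all 3 brown libraries for these genes, and yellow library 1 was the nearest to green. The scaling used here was TMM within the kind, not the fit of 18 libraries that gave the factor of 0.320. Among the rRNA-depleted libraries it raised yellow library 2 the most, where FvMYB10 went from 13.4 CPM to 22.4 normalised CPM. Means of the set in CPM of library totals were not taken.

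FvMYB10 reached 15.1, 47.8 and 27.6% of its mean brown level in yellow libraries 1, 2 and 3, in normalised CPM. The median gene of the set reached 27.6, 165 and 52.2%. In CPM of library totals FvMYB10 measured 7.65, 13.4 and 14.5 there, against a brown mean of 46.5, so library 3 stood above library 2 before scaling. In yellow library 2, 2 of the 404 genes stood at a lower share of their brown level than FvMYB10 did, and in libraries 1 and 3 the numbers were 129 and 91. The share of FvMYB10 was thus below the median of the set in each of the 3 libraries, by the most in library 2. On a log2 scale that puts the green mean at 0% and the brown mean at 100%, FvMYB10 stood at 59.3, 84.2 and 72.1%, and the median gene of the set at 45.2, 125 and 74.4%. On that scale 256, 10 and 181 of the 404 genes stood below it, so only in libraries 2 and 3 was it under the median. The scale adds 0.5 to each normalised CPM, more than the green mean of 0.0492 for FvMYB10. The green end for this gene is therefore set mostly by the added 0.5. Whether FvMYB10 would stay under the median in library 3 without the added 0.5 was not tested. The set and the scale share the brown and green libraries, so these positions are descriptions with no test.

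**Figure D3:**
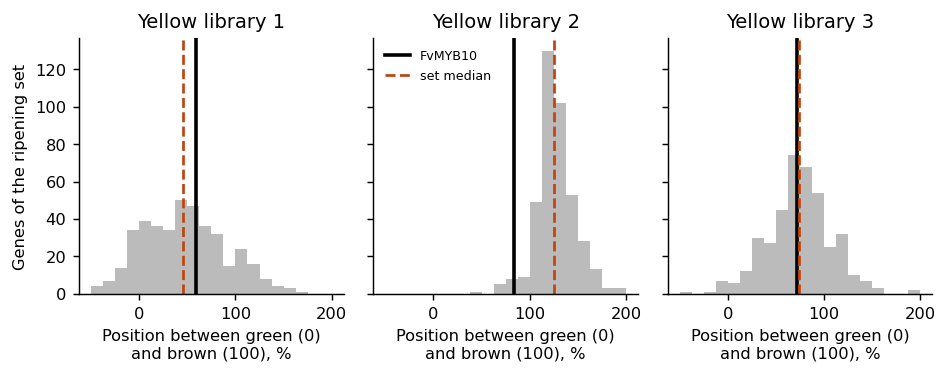
Position of 404 ripening genes in each rRNA-depleted yellow library between their green mean (0%) and brown mean (100%) on the log2 scale, as histograms with values beyond the axis placed in the end bins; the solid line is FvMYB10 and the dashed line the median of the set. FvMYB10 stands at 59.3, 84.2 and 72.1%, right of the median in library 1 and far left of it in library 2. The scale is log2(normalised CPM + 0.5), so the green end for FvMYB10 is set mostly by the added 0.5.

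The next comparison set the RNA pools against each other. Most mRNAs end in a poly(A) tail and are thinned out by poly(A) depletion, so the ratio of the poly(A)-depleted to the rRNA-depleted level shows how much of a transcript remains relative to the rest. The scaling between such different pools is uncertain. Over all rows, the median log2 fold change in yellow fruit was 0.45 with TMM on every row, 1.19 with TMM on annotated genes alone and 2.48 with library size only, and in brown fruit it was 0.28, 0.72 and 1.71. In green fruit it was 0.27, 0.38 and 1.16. With TMM on every row, the median over the annotated genes among these rows was -0.40 in yellow, -0.05 in brown and -0.21 in green fruit. Values for the gene are to be read against these medians, and those over annotated genes compare it with other genes.

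In yellow fruit FvMYB10 was lower in poly(A)-depleted libraries, at 2.86 ± 0.842 normalised CPM against 26.1 ± 14.5 in rRNA-depleted ones (scaled over all 18 libraries, SD, n = 3 each). The log2 fold change was -3.19 ± 0.70 (edgeR adjusted p = 0.000857), where 25.8% of annotated genes were called higher and 42.2% lower. Of 26494 annotated genes tested, 11.5% had a more negative value. With library size only it was -0.97 and not called (adjusted p = 0.118), against -2.42 with TMM over annotated genes (adjusted p = 0.00314). Without rRNA-depleted yellow library 2 it was -2.68 (0.00415), and without poly(A)-depleted brown library 3, which shares the fit, it was -3.06 (3.72e-06).

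In brown fruit the levels were 25.5 ± 20.7 normalised CPM in poly(A)-depleted libraries and 83.2 ± 29.0 in rRNA-depleted libraries. The log2 fold change of -1.71 ± 0.65 just missed the threshold (edgeR adjusted p = 0.0519, 8.58% of genes called higher and 25% lower). It depended on single libraries: it was -0.94 without poly(A)-depleted brown library 3 (adjusted p = 0.139, with 1.74% of genes called higher and 10.4% lower). It was called without poly(A)-depleted brown library 1 (-2.22, adjusted p = 0.0225), rRNA-depleted brown library 3 (-1.98, 0.0288), rRNA-depleted yellow library 1 (-1.72, 0.0482) or rRNA-depleted yellow library 2 (-1.72, 0.0371). With library size only it was -0.49.

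In green fruit the direction of the estimate was the opposite, at 0.180 ± 0.0776 normalised CPM in poly(A)-depleted libraries and 0.0728 ± 0.0299 in rRNA-depleted libraries. The log2 fold change of 1.23 ± 1.03 did not pass (edgeR adjusted p = 0.349, 15.2% of genes called higher and 11% lower). It was 2.11 with library size only (adjusted p = 0.0612) and rested on 12 against 11 counts in all. Pooled CPM was 4.44 times as high in poly(A)-depleted libraries (1.79 to 11.1, exact 95% interval). Intergenic lncRNA rows took 5.70 to 7.28% of counts in poly(A)-depleted libraries and 1.87 to 2.08% in rRNA-depleted green libraries, and their part in this ratio was not tested.

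Library by library, the low value in brown fruit sat in poly(A)-depleted library 3. Set against the mean of the rRNA-depleted brown libraries, in CPM of library totals, FvMYB10 stood at 89.6% in poly(A)-depleted brown library 1, at 113% in library 2 and at 10.5% in library 3. Among 11621 other annotated genes with at least 5 CPM in rRNA-depleted brown fruit, 35.7, 53.8 and 2.85% had a lower ratio than FvMYB10 in these libraries. In libraries 1 and 2 the gene was therefore close to the middle of these genes, and in library 3 it was in their lower tail. These genes were kept for their level in rRNA-depleted brown fruit, the lower part of the ratio. Over all annotated genes tested in the fit without poly(A)-depleted brown library 3, 24.3% had a more negative log2 fold change. In poly(A)-depleted yellow libraries 1, 2 and 3 it stood at 47.8, 64.9 and 40.1% of the rRNA-depleted yellow mean, and 21.2, 39.9 and 23.1% of 11215 other genes had a lower ratio. Ranks within a library depend on the scaling of that library only through the 0.5 CPM added to both parts of each ratio before ranking.

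**Figure D4:**
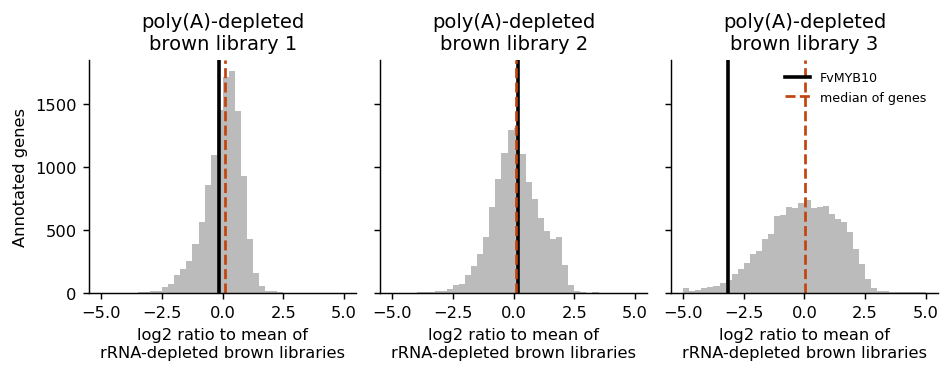
Log2 ratio of CPM in each poly(A)-depleted brown library to the mean of the rRNA-depleted brown libraries, as histograms over 11621 annotated genes, with values beyond the axis placed in the end bins; the solid line is FvMYB10 and the dashed line the median gene. The genes have at least 5 CPM in rRNA-depleted brown fruit. Among them FvMYB10 lies near the median in libraries 1 and 2, and it is at 10.5% of the rRNA-depleted level in library 3.

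The 404 ripening genes were also low in that library. Their mean log2(normalised CPM + 0.5) was 7.12 and 5.99 in poly(A)-depleted brown libraries 1 and 2 and 4.28 in library 3, with 4.36, 5.08 and 4.40 in the poly(A)-depleted yellow libraries. Low FvMYB10 in brown library 3 thus went with a low mean of the set, with the yellow-like profile and with the high intergenic share given above. The part of each in the low value was not tested.

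Whether the change over the stages differed between the RNA pools was tested as an interaction in the fit of all 18 libraries. It had an unadjusted p of 0.0076 and an edgeR adjusted p of 0.173 (F test with 2 degrees of freedom), where 0.121% of annotated genes were called. DESeq2 gave an adjusted p of 0.0229, with 7% of genes called. The difference between the kinds was -4.42 ± 1.26 on the log2 scale for yellow over green (adjusted p = 0.0618, 0.279% of genes called higher and 1.26% lower). It was 1.48 ± 0.92 for brown over yellow (0.465), where edgeR called 0% of genes and placed 2930 at an unadjusted p under 0.05; DESeq2 was run on the joint interaction only. It was -2.94 ± 1.23 for brown over green (0.559, 0.0226% higher and 0.00377% lower). Without poly(A)-depleted brown library 3 the interaction passed (adjusted p = 0.00834), with 14.3% of genes called. The differences without it were -4.30 for yellow over green (0.00386, 1.37% of genes higher and 17.8% lower), 2.12 for brown over yellow (0.0400, 7.02% higher and 0.105% lower) and -2.18 for brown over green (0.793). The difference for yellow over green was also called without poly(A)-depleted brown library 1 (0.0323) or rRNA-depleted brown library 3 (0.0474). Without rRNA-depleted yellow library 2 it was -3.91 (0.129), and the interaction had an adjusted p of 0.235. The yellow over green difference rested on green values near the floor in both kinds. It was -3.08 with library size only (edgeR adjusted p = 0.231) and -3.76 with TMM over annotated genes (0.160). The median of this difference over annotated genes was 0.71 and 0.19 in these fits, against -0.44 with TMM on every row.

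Rows with a pattern like that of FvMYB10 were found by Pearson's correlation of log2(normalised CPM + 0.5) over the 18 libraries, among rows with a mean of at least 1 normalised CPM. The libraries share stages, depth and scaling, so r is a description. Of 23441 other annotated genes, 20 had an r over 0.95 and 32 under -0.95, and the median was 0.0933. The gene IDs are not paired with names in the sources used here, so the closest are given by ID.

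The annotated gene most like it, FvH4_5g32460 (r = 0.973), measured 0.704 ± 0.0952, 29.8 ± 16.7 and 83.0 ± 55.5 CPM in the poly(A)-depleted libraries of green, yellow and brown fruit (SD, n = 3 each). It measured 0.924 ± 0.384, 94.1 ± 56.2 and 152.9 ± 19.7 CPM in rRNA-depleted ones. It rose in brown relative to green fruit in both kinds of library, by log2 fold changes of 7.05 ± 1.02 and 7.53 ± 0.78 in the poly(A)-depleted and the rRNA-depleted fit (edgeR adjusted p = 0.00419 and 3.85e-05). Its poly(A)-depleted brown library 3, at 23.1 CPM, also lay below libraries 1 and 2, at 132.5 and 93.4 CPM. FvH4_1g18070 (r = 0.970) was second, with 109 ± 63.1 CPM in poly(A)-depleted libraries and 169 ± 35.0 CPM in rRNA-depleted brown libraries. Its deviations from the group means correlated with those of FvMYB10 (r = 0.918, and 0.863 for FvH4_5g32460). Both genes were picked for their r over the same libraries, so these values follow in part from the choice. The ranks depended on the setting: FvH4_5g32460 and FvH4_1g18070 ranked 97 and 17 by Spearman's correlation. They ranked 46 and 18 in poly(A)-depleted libraries alone, and 4 and 1 with library size only.

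Smaller log2 fold changes than that of FvMYB10 were measured in the later step for the 20 most alike genes. Between brown and yellow fruit none of the 20 had a larger log2 fold change than FvMYB10 in either kind of library, with ranges of 0.96 to 2.91 in poly(A)-depleted libraries and -0.21 to 1.33 in rRNA-depleted libraries. Between yellow and green fruit 3 of the 20 in poly(A)-depleted libraries and 1 in rRNA-depleted ones had a larger one. These genes were picked for their likeness in the same libraries, so no test was made.

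The genes most opposite to FvMYB10 were FvH4_5g15570 (r = -0.974) and FvH4_6g01620 (r = -0.973). This place depended on the scaling and the libraries. They ranked 853 and 2205 among opposite genes with library size only and 16 and 173 with TMM over annotated genes. In rRNA-depleted libraries alone they ranked 90 and 47. FvH4_5g15570 fell in brown relative to green rRNA-depleted fruit (log2 fold change -5.48 ± 0.51, edgeR adjusted p = 2.46e-05). In poly(A)-depleted brown libraries it measured 1.17, 1.78 and 15.0 CPM, so library 3 was again on the side of the yellow libraries, which measured 8.81 to 11.4 CPM. FvH4_6g01620 fell by 4.35 ± 0.53 on the log2 scale in the same comparison (adjusted p = 1e-04).

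Among lncRNA rows, long transcripts with no known protein, the most alike intergenic row was LINC.XLOC_014644 (r = 0.975, 1 exon on chromosome 4, 16620059 to 16620728, plus strand, in the authors' coordinates; the build is not given in the sources used here). It measured 0.455 ± 0.0228, 5.40 ± 3.04 and 20.4 ± 14.1 CPM in the poly(A)-depleted libraries of green, yellow and brown fruit, and 0.203 ± 0.220, 6.67 ± 4.99 and 16.7 ± 2.69 CPM in rRNA-depleted ones. It rose in brown relative to green fruit by a log2 fold change of 5.66 ± 0.95 in poly(A)-depleted libraries and 6.48 ± 0.92 in rRNA-depleted libraries (edgeR adjusted p = 0.00892 and 0.000286). The next, LINC.XLOC_031657 (r = 0.960, chromosome 7, 7174587 to 7176480, minus strand), followed the shape at a much smaller scale, with a log2 fold change of 1.40 ± 0.35 in rRNA-depleted libraries (adjusted p = 0.014). Its r was 0.490 with library size only.

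The most alike exonic antisense rows were exonAS.XLOC_005584 (r = 0.974, chromosome 2, 27612176 to 27613097, plus strand) and exonAS.XLOC_026257 (r = 0.956, chromosome 6, 39366723 to 39367297, plus strand). In brown relative to green rRNA-depleted fruit they rose by log2 fold changes of 5.19 ± 0.51 and 7.07 ± 0.93 (edgeR adjusted p = 2.95e-05 and 0.000167). How the counting treated strand is not stated in the sources used here, and reads of such a row cannot be told apart from those of a gene on the other strand.

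**Figure D5:**
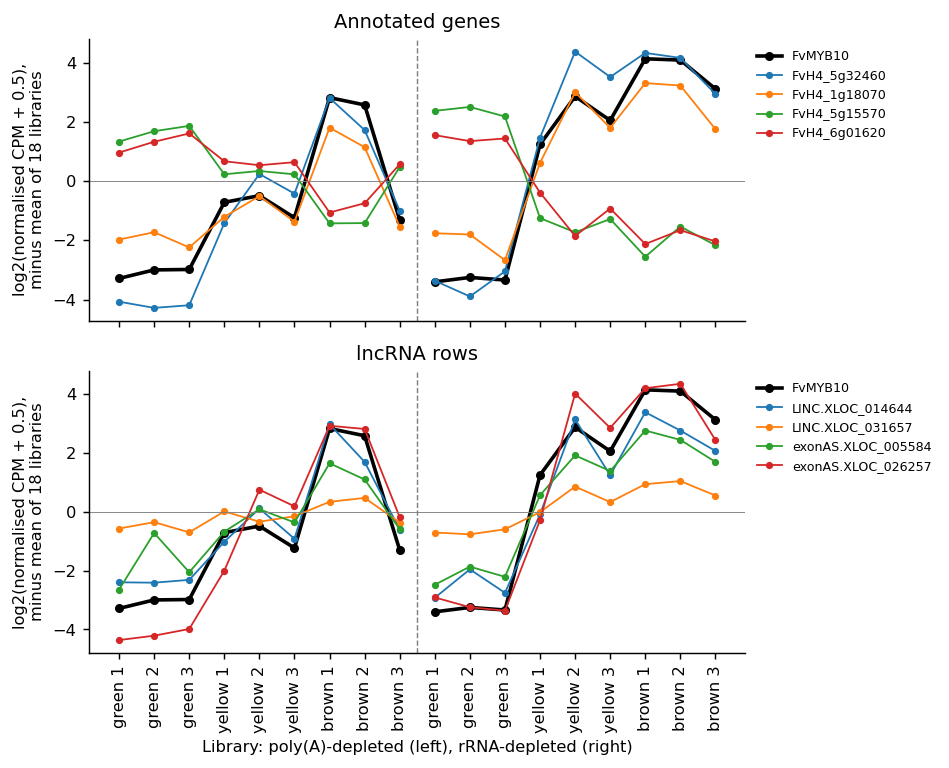
Log2(normalised CPM + 0.5) of FvMYB10 and of the 8 named rows in each library, minus the mean of the 18 libraries, for annotated genes (top) and lncRNA rows (bottom). The 2 most alike genes and FvMYB10 lie below their own mean in green libraries and in poly(A)-depleted brown library 3, and the 2 opposite genes lie above theirs there.

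The genes numbered next to FvMYB10 did not share its pattern. Of the 20 genes with the nearest numbers, 10 on each side, 0 were called higher between brown and green fruit in rRNA-depleted libraries, where 4.8% of all genes were, and 4 were called lower, where 13% were (edgeR). Their log2 fold changes ranged from -1.90 to 1.94, with a median of -0.19, beside 0.03 over all annotated genes. At an unadjusted p under 0.05, 1 was higher and 5 were lower, and DESeq2 called 0 higher and 4 lower. Of the 19 tested in poly(A)-depleted libraries, edgeR called 0 higher and 1 lower, with 3 higher and 2 lower at an unadjusted p under 0.05, and DESeq2 called 1 higher and 1 lower. Their log2 fold changes ranged from -2.27 to 1.17. Their correlations with FvMYB10 over the 18 libraries ran from -0.916 to 0.310.

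The nearest genes on either side were also measured in both RNA pools. The gene with the next lower number measured 16.3 ± 3.95, 38.7 ± 3.22 and 30.1 ± 13.8 CPM in the poly(A)-depleted libraries of green, yellow and brown fruit, and 3.47 ± 0.0235, 3.24 ± 2.38 and 7.08 ± 6.69 CPM in rRNA-depleted ones (SD, n = 3 each). The gene with the next higher number measured 10.4 ± 1.26, 24.9 ± 3.83 and 20.0 ± 6.49 CPM in poly(A)-depleted libraries and 2.21 ± 0.261, 2.51 ± 1.43 and 5.82 ± 5.32 CPM in rRNA-depleted libraries. Both had higher group means in poly(A)-depleted than in rRNA-depleted libraries at each stage in CPM of library totals, as FvMYB10 had in green fruit, with 0.248 ± 0.107 CPM in poly(A)-depleted and 0.0542 ± 0.0231 CPM in rRNA-depleted libraries. In mature fruit the group means of FvMYB10 ran the other way, at 6.03 ± 1.50 CPM in poly(A)-depleted and 11.8 ± 3.67 CPM in rRNA-depleted yellow fruit, and at 33.0 CPM in poly(A)-depleted and 46.5 CPM in rRNA-depleted brown fruit, where the libraries of the 2 kinds overlapped. On library totals the median annotated gene was also higher in poly(A)-depleted libraries, by log2 fold changes of 0.68, 1.66 and 1.41 in green, yellow and brown fruit. Values below that of FvMYB10 were held by 78.0, 12.4 and 12.2% of annotated genes. The differences between FvMYB10 and these neighbours were not tested.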

How the data were processed

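The deposited table holds the authors' raw counts for each annotated gene and lncRNA in each library, unscaled, judged by their whole-number values. TopHat2 2.1.2, STAR 2.5.4b and Trim Galore 0.4.2 were used, per the submitters' processing notes, which give them no role. The build, the annotation, the counting program and how it treated strand were not given in the sources used here. Libraries were stranded and paired-end, per the labels.

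FvMYB10 was taken by its ID. The gene, the lists and the tests were chosen with earlier results of these data known. Of 28588 gene IDs, 0 matched the 24946 reference rows, so no pathway list or protein was compared. The rows named besides FvMYB10 were the 2 most alike and 2 most opposite genes and the 2 most alike intergenic and antisense lncRNAs by r over 18 libraries, with a mean of at least 1 normalised CPM. Neighbouring gene numbers and the ripening set were described, not tested as lists.

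Counts were tested with edgeR 4.0.16, on R 4.3.3 with limma 3.58.1, using TMM, filterByExpr, a quasi-likelihood F test and Benjamini-Hochberg adjustment over all rows. Each library kind had its own fit, and a fit of 18 libraries gave the library kinds and the interaction. Standard errors were derived from F. DESeq2 1.42.0, other scalings and filters, a fit of the compared groups only, a replicate block and each library left out were alternatives. The intergenic share as a covariate was added after seeing the data. In simulated counts with 200 rows changed 8-fold, edgeR recovered 83.5% of them for brown over green in rRNA-depleted libraries (48160 rows), 79.5% for the same comparison in poly(A)-depleted libraries (47711 rows) and 86% between the kinds in brown fruit (50213 rows). The other comparisons were not simulated. P-values measure the spread between pooled-plant replicates. Exact Poisson and ratio intervals and floors cover counting error only. The number of per-sample columns left unused was 0.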

Additional observations from a re-analysis of the deposited data

How the results depend on the processing

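Over 21 results and 481 alternatives, 0 reversed, 8 no longer passed the threshold, 18 newly passed it and 3 moved. Brown over green in both kinds of library and yellow over green in rRNA-depleted libraries passed under every alternative run. Leaving out each library in turn gave log2 fold changes of 3.68 to 4.21 for yellow over green in poly(A)-depleted libraries. For brown over yellow it gave 2.45 to 3.71 in poly(A)-depleted and 1.41 to 2.19 in rRNA-depleted libraries. For poly(A)-depleted over rRNA-depleted brown fruit it gave -2.22 to -0.94. For the difference between the kinds it gave -4.79 to -3.91 for yellow over green and 0.96 to 2.12 for brown over yellow, and the interaction's adjusted p ran from 0.00834 to 0.452. DESeq2 called brown over yellow in rRNA-depleted libraries (1.61), brown fruit between the kinds (-1.71) and the interaction (adjusted p = 0.0229), and edgeR with no low-count filter called brown fruit between the kinds (-1.71). With library size only, yellow fruit between the kinds was -0.97 and not called, and r was -0.86 for FvH4_5g15570, -0.74 for FvH4_6g01620 and 0.49 for LINC.XLOC_031657. The labels do not say that equal replicate numbers share fruit or RNA. Deviations of same-numbered libraries correlated at over 0.1 in 8 of 9 pairs across kinds (-0.145 to 0.654, the lowest in brown pair 2) and in 8 of 18 across stages (-0.199 to 0.649). Across kinds, 8 of 9 poly(A)-depleted libraries correlated best with their own number, a hint of pairing from the data and not from the design, and since brown pair 2 went against it the numbers were not treated as pairs. With a replicate block, brown fruit between the kinds was -2.39 (adjusted p = 0.00212), the yellow over green difference was -4.34 and the interaction had an adjusted p of 0.0444, all called. With the intergenic share as a covariate, chosen after seeing the data, yellow over green in poly(A)-depleted libraries was 6.23 and called, and brown over yellow there was 1.68 and not called. The causes of these changes were not tested. Depth limited green fruit, where FvMYB10 held 12 and 11 counts over the poly(A)-depleted and rRNA-depleted groups.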
